A study of Mus musculus with 2 samples.

Results

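The genes described here encode the machinery that takes up glucose, breaks it down to pyruvate and exports lactate, together with the pyruvate dehydrogenase gate and the pentose phosphate pathway. They were chosen by symbol, as a list of 38 genes of 37451 in the table, and all 38 had a row. Expression was measured by RNA-Seq of rRNA-depleted RNA from bone marrow-derived macrophages (BMDMs), in 1 library of WT cells and 1 library of ΔM cells. Both genotypes were C57BL/6 littermates aged 7 to 9 weeks, both cultures were grown with CSF-1 from L929 cells, and both received 100 µM 4-thiouridine (4sU) over 16 h and then LPS at 10 ng/ml over 6 h. The sample titles carry the tag LPS7, whereas the treatment text and the design text state 6 h, and no unstimulated library was analysed here. ΔM BMDMs carry TTP fl/fl LysMCre, in which Cre driven by the lysozyme M promoter deletes *Zfp36*, the gene of tristetraprolin (TTP), in myeloid cells. TTP is a zinc finger protein that binds AU-rich sequences in mRNA and promotes mRNA decay, and the comparison asks how RNA levels differ when it is missing. The control libraries were made for the mapping of TTP binding sites.

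Glycolysis converts glucose to pyruvate in the cytosol. Macrophages that sense LPS through TLR4 are known to raise glucose uptake and glycolysis, to reduce much of the pyruvate to lactate and to export it, while pyruvate dehydrogenase kinases restrain the entry of pyruvate into the mitochondrion. Many enzymes of the pathway exist as isozymes encoded by separate genes, so that a cell type is marked by which isozyme it uses as well as by how much.

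Values are FPKM, fragments per exon length scaled by library size, a scale that corrects for length. Levels of different genes can be compared on it only where their transcripts map uniquely, which is described with the mapping further on. Differences are log2 ratios of ΔM to WT after 1 FPKM was added to either value, which understates those of genes with low levels. With 1 library per genotype there is no replicate, so that no difference between the genotypes has a replicate check and no p-value is given. The steps between low FPKMs correspond to about 36900000 fragments in WT and 32700000 in ΔM, which allowed a 95% Poisson counting interval for each gene. These intervals cover counting error only, not differences between mice or cultures, and they are approximate.

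The targeted gene *Zfp36* (chr7:29161803-29164274, minus strand, mm9) had 65.26 FPKM in the WT library and 16.71 in the ΔM library, a log2 ratio of -1.90. The 8 macrophage markers examined were all detected above 1 FPKM, and their summed level was 4001 FPKM in WT and 2864 in ΔM, of which *Lyz2*, the lysozyme M gene, held 2481 and 1356 FPKM. Among neutrophil markers only *S100a8* was above 1 FPKM, at 50.70 FPKM in WT and 100.02 in ΔM, while *Ly6g*, *S100a9*, *Elane* and *Ngp* were listed at 0 in both. Of the 21 markers of T cells, B cells, erythroid cells, fibroblasts and dendritic cells, *Cd4* had the highest level, at 1.03 FPKM in WT and 0.77 in ΔM, and the others were at 0.37 FPKM or less. The part of *Lyz2*, *S100a8* and of the residual *Zfp36* signal in the values below was not tested.

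Sequences that bear on TTP are shown first, because 3 of the 38 genes, *Eno2*, *Pfkfb3* and *Pkm2*, appear in the study's list of TTP sites mapped by PAR-iCLIP. The share of all genes in that list was not computed here, so that 3 of 38 says nothing about an excess of such sites. The list is shortened in the copy used for *Pfkfb3*, and all 8 site sequences that could be read for these genes matched NCBIM37 (mm9) at their stated positions. The sites are given as DNA letters, 5′ to 3′ on the strand of the gene, and capitals mark the heptamer TATTTAT (overlapping copies included), the core of the AU-rich element that TTP recognizes. For *Pkm2* the capitals mark the site itself instead.
Eno2 3′ UTR, exon 12 of 12, chr6:124710796-124710825, minus strand: cacagtttgtttgtttgctTATTTATTTAT
Pfkfb3 3′ UTR, exon 17 of 17, chr2:11393671-11393700, minus strand: agatgtgcTATTTATTTATttaatatgtat
Pfkfb3 intron 4, chr2:11411454-11411483, minus strand: ggctttaaaaattTATTTATTTATTTATtt
Pkm2 intron 9, chr9:59524963-59524989, plus strand: ctttctttttTTTTTAAatttatttat
The *Eno2* line is the 5′ part of a site of 67 nt (chr6:124710759-124710825), which holds 10 overlapping copies of TATTTAT and ends 686 nt before the 3′ end of the annotated transcript. The *Pfkfb3* 3′ UTR line is a whole site of 30 nt with 2 copies, whereas the intronic line is the 5′ part of a site of 75 nt with 9 copies. The *Pkm2* site of 7 nt lies in an intron and holds no TATTTAT itself, while 1 copy lies in the 10 nt that follow it. Not printed are the *Pfkfb3* 3′ UTR sites of 47 and 15 nt, its intronic site of 13 nt and the *Eno2* 3′ UTR site of 3 nt. These hold no TATTTAT, for which the *Eno2* site of 3 nt is too short in any case.

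Across the 33 of 38 genes averaging at least 1 FPKM, the levels ranged from 0.77 to 395.00 FPKM in WT and from 1.43 to 295.11 FPKM in ΔM. They summed to 1585 FPKM in WT and 1566 in ΔM, which was 0.741% and 0.735% of the FPKM sum of protein-coding genes. The other 5 genes were under a mean of 1 FPKM. These were the liver-type and heart-type bifunctional enzymes *Pfkfb1* (0.61 FPKM in WT, 0.38 FPKM in ΔM) and *Pfkfb2* (0.58 and 0.67 FPKM), the lactate dehydrogenase B gene *Ldhb* (0.33 and 0.81 FPKM), and the pyruvate dehydrogenase kinases *Pdk2* (0.12 and 0.32 FPKM) and *Pdk4* (0.00 and 0.01 FPKM). The counting intervals of the 2 libraries overlapped for all 5.

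**Figure D1:**
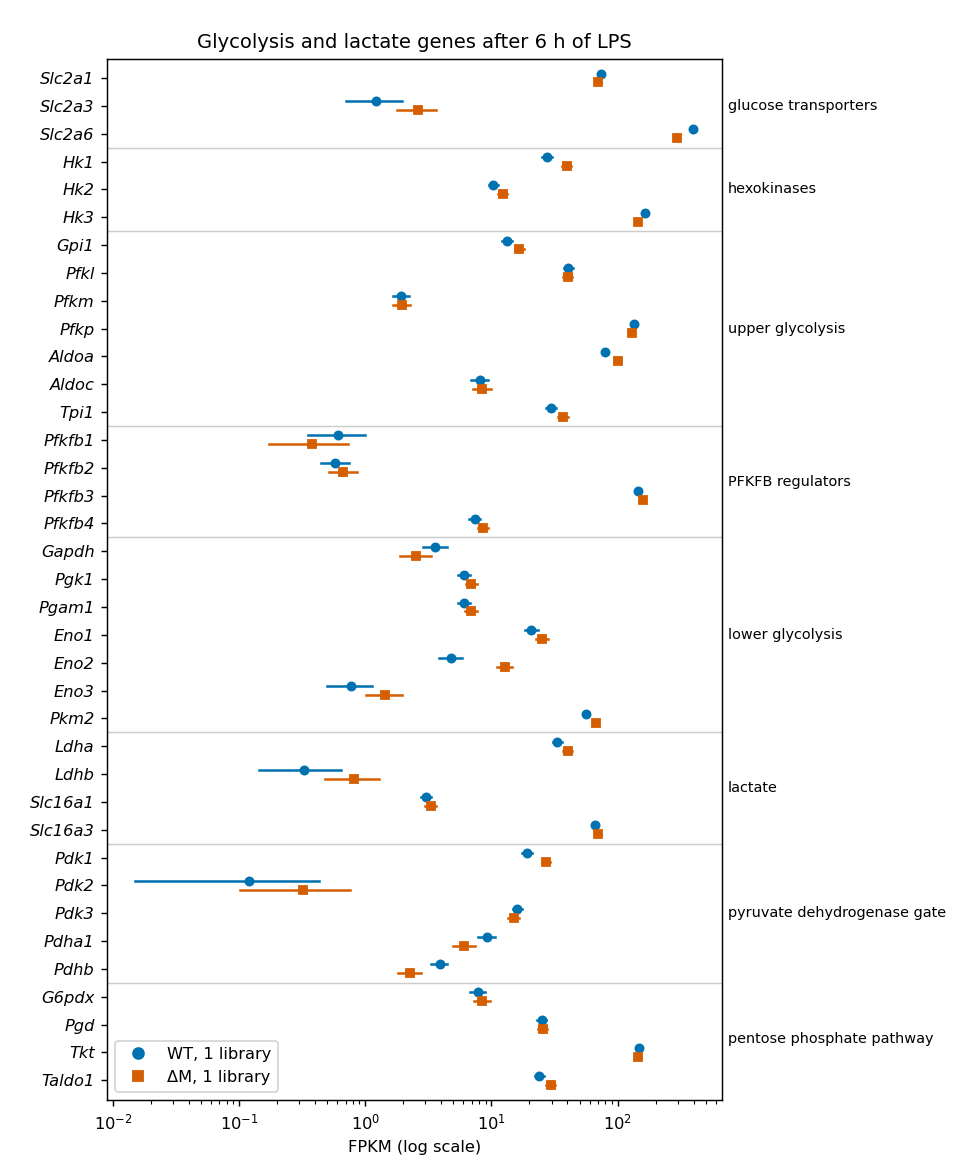
FPKM (log axis) of 37 of the 38 genes in the WT library (circles) and the ΔM library (squares), with 95% Poisson counting intervals as lines and genes grouped by role; *Pdk4*, at 0.00 and 0.01 FPKM, is left out. Levels run from 0.12 FPKM for *Pdk2* to 395.00 FPKM for *Slc2a6* in WT, and most WT and ΔM symbols lie close together compared with this range.

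*Eno2* and *Slc2a3* were at least 1.5-fold higher in ΔM, and *Pdhb* was at least 1.5-fold lower, out of 33 genes. Among all 10765 genes averaging at least 1 FPKM, 11.2% were at least 1.5-fold higher and 7.51% at least 1.5-fold lower, and among the 8078 protein-coding genes 4.83% and 5.36%. The count of 2 higher lies between these backgrounds, and that of 1 lower is below both. At least 2-fold, *Eno2* was higher and 0 of 33 were lower, where 5.69% and 3.61% of all genes and 1.19% and 1.32% of protein-coding genes were so. Of the 20 genes averaging at least 10 FPKM 0 passed 1.5-fold, where 3.22% of such protein-coding genes were higher and 3.92% lower. For the 33 genes the log2 ratios had a median of 0.13, with a range from -0.59 to 1.25, beside 0.03 over all genes and -0.0015 over protein-coding genes. A positive ratio of any size was found for 23 genes and a negative ratio for 10, where 53.8% of all genes and 49.5% of protein-coding genes were higher in ΔM. As bulk RNA was sequenced, a lower share of cells that express a gene and less RNA per cell cannot be told apart.

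Counting intervals of the libraries lay apart for 15 genes. They lay apart with a higher level in ΔM for *Hk1*, *Hk2*, *Gpi1*, *Aldoa*, *Tpi1*, *Pfkfb3*, *Eno2*, *Pkm2*, *Ldha*, *Pdk1* and *Taldo1*, 11 of 33, a share above the background, where 16.6% of all 8939 genes with an interval and 17.7% of 8046 protein-coding genes were so. They lay apart with a lower level in ΔM for *Slc2a6*, *Hk3*, *Pdha1* and *Pdhb*, 4 of 33, a share below the background, where 17.9% and 19.5% were so. These backgrounds are not matched for level, as 20 of the 33 genes and 3039 of the 8078 protein-coding genes averaged at least 10 FPKM. Among the 3039, intervals lay apart for 645 genes higher and 810 lower in ΔM. Among the 20, they lay apart for all the genes named above as higher except *Eno2*, and for *Slc2a6* and *Hk3* of those named as lower. For the remaining 18 of the 33 genes the intervals overlapped. The interval of the ratio itself lay above 1 for 5 of these 18, *Slc2a3*, *Eno3*, *Eno1*, *Pfkfb4* and *Slc16a3*, and held 1 for the others. With the longest annotated transcript in place of the median length, intervals lay apart for 16 genes higher in ΔM, the 11 above and these 5, beside 22.0% of all genes and 23.5% of protein-coding genes. They lay apart for 5 genes lower in ΔM, the 4 above and *Pfkp*, beside 24.2% and 26.4%.

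**Figure D2:**
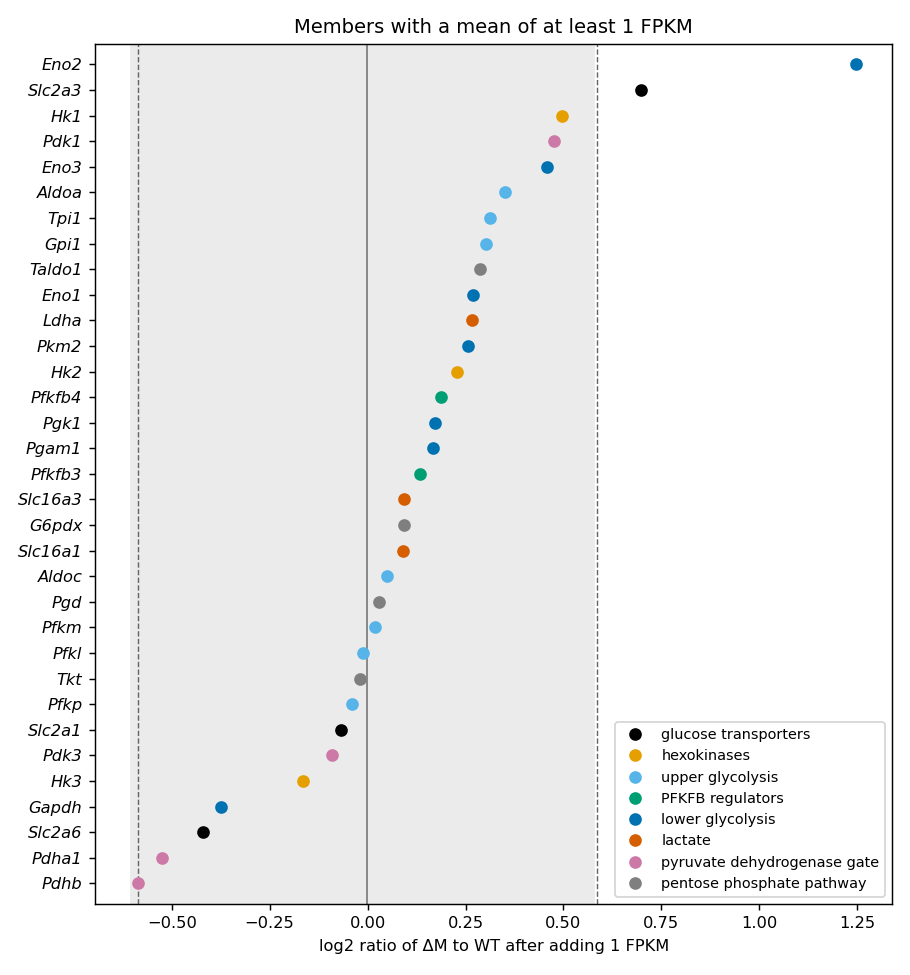
Log2 ratio of ΔM to WT, after adding 1 FPKM, for the 33 genes averaging at least 1 FPKM (1 point each, 1 library per genotype, coloured by role). The grey band is the central 90% of protein-coding genes, -0.60 to 0.58, and dashed lines mark a fold of 1.5; *Eno2* at 1.25 and *Slc2a3* at 0.70 lie above the band and the other 31 genes within it.

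The glucose transporters differed from each other in level more than between genotypes. *Slc2a6* encodes GLUT6, an intracellular member of the glucose transporter family. It (chr2:26876883-26883518, minus strand) had the highest level of all 38 genes and ranked at 65 among protein-coding genes in WT and at 96 in ΔM. It was at 395.00 FPKM (390.3 to 399.8) in WT and 295.11 FPKM (290.8 to 299.5) in ΔM, a ΔM level of 0.747 times that in WT (0.733 to 0.762) and a log2 ratio of -0.42. *Slc2a1*, which encodes the widely expressed uptake transporter GLUT1, was at 73.39 FPKM in WT and 70.03 in ΔM, with a log2 ratio of -0.07 and overlapping intervals. *Slc2a3* (chr6:122677827-122751658, minus strand) encodes GLUT3, a transporter of high affinity. It was at 1.22 FPKM (0.709 to 1.96) in WT and 2.60 FPKM (1.78 to 3.67) in ΔM, a log2 ratio of 0.70. At the median annotated transcript length of 574 nt, the values rest on about 16.9 and 31.9 fragments. The ratio of the FPKMs as deposited was 2.13 (1.15 to 4.10), so that *Slc2a3* passed 1.5-fold with intervals that overlapped at this length. The longest transcript, 6253 nt, implies more fragments, and with it the intervals lay apart. *Slc2a3* is also overlapped on its own strand by the pseudogene *Gm4482* (2.89 and 3.27 FPKM), so that its low level is uncertain. *Slc2a1* held 98.4% of the sum of *Slc2a1* and *Slc2a3* in WT and 96.4% in ΔM.

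Hexokinases phosphorylate glucose and so trap it in the cell. *Hk3*, the hexokinase typical of myeloid cells, was at 163.79 FPKM (161 to 166) in WT and 145.99 FPKM (143 to 149) in ΔM, a log2 ratio of -0.16. *Hk1*, the broadly expressed hexokinase that binds mitochondria, was at 27.67 FPKM (25.4 to 30.1) in WT and 39.43 FPKM (36.5 to 42.5) in ΔM, 1.43 times the WT level (1.27 to 1.60) and a log2 ratio of 0.50. *Hk2*, the inducible hexokinase, was at 10.34 FPKM in WT and 12.28 in ΔM, a log2 ratio of 0.23. *Hk3* was thus lower and *Hk1* and *Hk2* were higher in ΔM, each beyond counting error. The share of *Hk3* in the hexokinase sum was 81.2% (80.9 to 81.4) in WT and 73.8% (73.5 to 74.2) in ΔM, while that of *Hk1* was 13.7% (12.7 to 14.8) and 19.9% (18.7 to 21.2). The sum itself was 201.8 FPKM in WT and 197.7 in ΔM, so that the libraries differed in the mixture of hexokinases more than in their total.

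In the upper part of glycolysis, which prepares and splits the hexose, the phosphofructokinases were nearly equal between the libraries. *Pfkp*, the platelet-type enzyme, was at 133.88 FPKM in WT and 130.12 in ΔM, and the liver-type *Pfkl* was at 40.62 and 40.29 FPKM. The muscle-type *Pfkm* was at 1.92 and 1.96 FPKM. Their log2 ratios lay between -0.04 and 0.02, and *Pfkp* held 75.9% of the phosphofructokinase sum in WT and 75.5% in ΔM. *Gpi1*, glucose-6-phosphate isomerase, was at 13.32 FPKM in WT and 16.65 in ΔM, a log2 ratio of 0.30. *Aldoa*, the main aldolase outside liver and brain, was at 79.51 FPKM (76.2 to 83.0) in WT and 101.62 FPKM (97.6 to 106) in ΔM, a log2 ratio of 0.35. The brain-type aldolase *Aldoc* had 8.12 and 8.44 FPKM, with overlapping intervals. *Tpi1*, which interconverts the triose phosphates, was at 29.51 FPKM in WT and 36.88 in ΔM, a log2 ratio of 0.31. *Gpi1*, *Aldoa* and *Tpi1* were thus each higher in ΔM beyond counting error, by folds between 1.25 and 1.28.

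The PFKFB enzymes make and degrade fructose-2,6-bisphosphate, the activator of phosphofructokinase, and PFKFB3 is the form with the highest kinase activity. *Pfkfb3* (chr2:11393057-11423728, minus strand) was at 145.67 FPKM (143 to 149) in WT and 159.79 FPKM (156 to 163) in ΔM. Its log2 ratio was 0.13, a fold of 1.10 (1.06 to 1.13), and it is the gene of the 3′ UTR site and the intronic site shown above. It held 94.4% of the PFKFB sum in WT and 94.3% in ΔM. *Pfkfb4* was at 7.40 FPKM in WT and 8.57 in ΔM, a log2 ratio of 0.19 with overlapping intervals.

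In the lower part of glycolysis, which yields ATP and pyruvate, *Eno2* differed from the rest. *Eno2* (chr6:124710071-124719691, minus strand) encodes the gamma enolase that is best known from neurons. It was at 4.77 FPKM (3.85 to 5.84) in WT and 12.70 FPKM (11.1 to 14.5) in ΔM. These values rest on about 93.1 and 219.7 fragments at the median annotated transcript length. The log2 ratio of *Eno2* was 1.25, and the ratio of the FPKMs as deposited was 2.66 (2.08 to 3.43). Within 50 kb of *Eno2*, 8 protein-coding genes averaged at least 1 FPKM, and their log2 ratios had a median of 0.01 and ran from -0.73 (*Ptpn6*) to 0.31 (*Tpi1*). The nearest of these in ratio to *Eno2* is thus *Tpi1*, at a log2 ratio far below 1.25. Of the other genes past 1.5-fold, *Slc2a3* had 2 such neighbours, with log2 ratios of 0.38 and 0.39 beside its own 0.70. *Pdhb* had 1, with a log2 ratio of 0.15 beside its own -0.59. No window of the *Eno2* transcript had a copy elsewhere in the genome.

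The ubiquitous alpha enolase *Eno1* was at 20.71 FPKM (18.4 to 23.2) in WT and 25.18 FPKM (22.5 to 28.1) in ΔM, a log2 ratio of 0.27. The muscle enolase *Eno3* was at 0.77 and 1.43 FPKM, a log2 ratio of 0.46, and the intervals of both genes overlapped. *Eno2* held 18.2% (15.2 to 21.4) of the enolase sum in WT and 32.3% (29.4 to 35.3) in ΔM, and *Eno1* held 78.9% and 64.1%. *Eno1* had the highest FPKM of the enolases in both libraries. As 84.6% of the windows of *Eno1* and none of *Eno2* had a copy elsewhere in the genome, *Eno1* may be undercounted, and the enolase shares are uncertain beyond their counting intervals. *Pkm2*, the pyruvate kinase gene of non-liver tissues, was at 56.12 FPKM (54.4 to 57.9) in WT and 67.17 FPKM (65.2 to 69.2) in ΔM, a log2 ratio of 0.26. The values are per gene and do not separate the M1 and M2 splice forms of pyruvate kinase.

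*Gapdh*, *Pgk1* and *Pgam1* encode the enzymes between the triose phosphates and enolase. *Gapdh* was at 3.59 FPKM (2.87 to 4.44) in WT and 2.54 FPKM (1.90 to 3.32) in ΔM, a log2 ratio of -0.37. *Pgk1* was at 6.06 and 6.95 FPKM, and *Pgam1* at 6.06 and 6.92 FPKM, both with a log2 ratio of 0.17. The intervals overlapped for all 3 genes. Such levels are far below those of *Aldoa* or *Pkm2* in the same pathway, and the copies of their transcripts are described with the mapping further on.

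**Figure D3:**
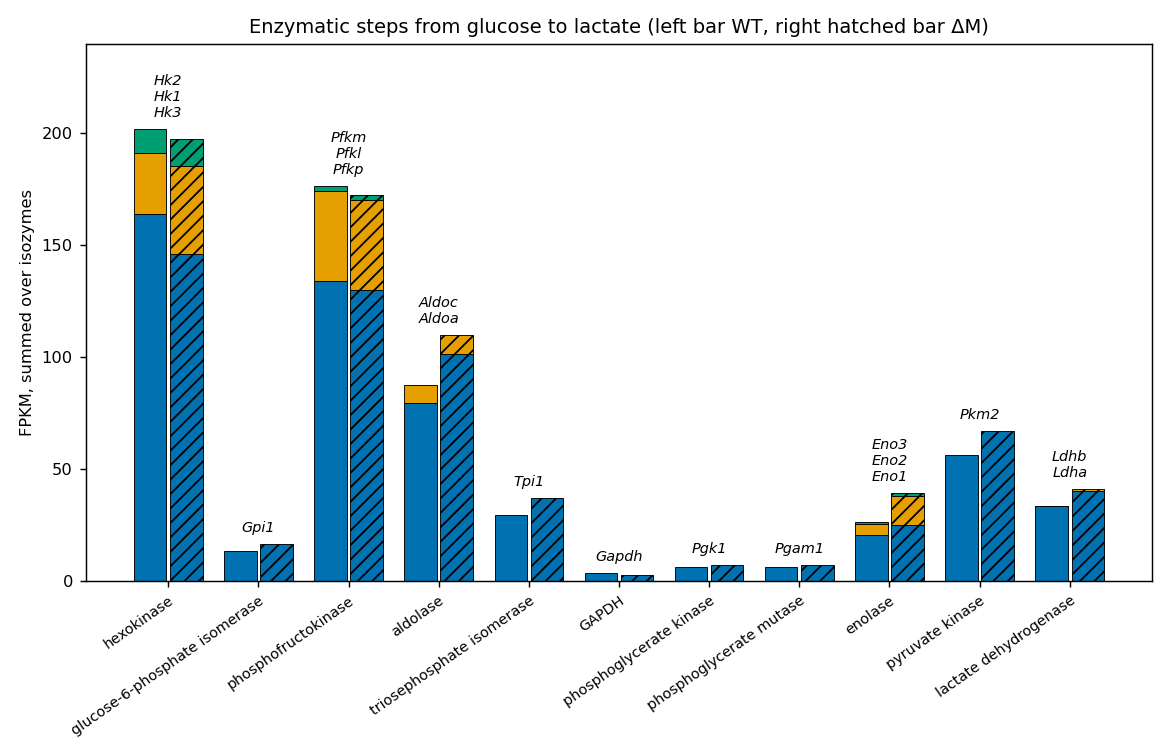
FPKM summed over isozymes for the 11 enzymatic steps from glucose to lactate, in the WT library (left bar of each pair) and the ΔM library (right, hatched bar); stacked colours are the isozymes in the order of the gene names above each pair. The sum was higher in ΔM at 8 steps, and lower at hexokinase, phosphofructokinase and GAPDH, and sums with genes that have genomic copies (*Eno1*, *Gapdh*, *Pgk1* and *Pgam1* among them) are uncertain on the low side.

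Summed over isozymes, 8 of the 11 enzymatic steps from glucose to lactate had a higher FPKM sum in ΔM and 3 had a lower one. Taken singly, 53.8% of all genes and 49.5% of protein-coding genes were higher in ΔM. In each of the 8 higher steps the gene with the highest FPKM had windows with a copy elsewhere in the genome, from 5.17% (*Aldoa*) to 94.3% (*Pgam1*). In the lower steps, *Gapdh* had 86.8% and *Hk3* and *Pfkp* had none. The part of such copies in the sums was not tested. The aldolase sum was 87.63 FPKM in WT and 110.06 in ΔM, a log2 ratio of 0.33. The enolase sum was 26.25 and 39.31 FPKM, a log2 ratio of 0.56 that lies between those of *Eno2* (1.25) and *Eno1* (0.27) and would be nearer to the latter if more *Eno1* were counted. The sums of the steps that commit glucose, hexokinase and phosphofructokinase, had log2 ratios of -0.03 each. The 7 genes of lower glycolysis had a median log2 ratio of 0.26 and the 7 genes of upper glycolysis one of 0.05, which is a description of 2 libraries and was not tested.

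Lactate dehydrogenase reduces pyruvate to lactate, and monocarboxylate transporters carry lactate across the plasma membrane. *Ldha* was at 33.26 FPKM (30.5 to 36.2) in WT and 40.24 FPKM (37.0 to 43.6) in ΔM, a log2 ratio of 0.27. It held 99.0% of the lactate dehydrogenase sum in WT and 98.0% in ΔM. *Slc16a3*, which encodes the lactate exporter MCT4, was at 66.01 FPKM in WT and 70.48 in ΔM. *Slc16a1*, which encodes the broadly expressed MCT1, was at 3.04 and 3.30 FPKM, and both had a log2 ratio of 0.09 with overlapping intervals. *Slc16a3* held 95.6% of the sum of both transporters in WT and 95.5% in ΔM. In both libraries the RNA of the lactate branch therefore came almost wholly from *Ldha* and *Slc16a3*.

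At the pyruvate dehydrogenase gate the subunits and 1 of the kinases lay on opposite sides. Pyruvate dehydrogenase converts pyruvate to acetyl-CoA, and its E1 component is built from the products of *Pdha1* and *Pdhb*. *Pdhb* (chr14:8998505-9005506, minus strand) was at 3.88 FPKM (3.34 to 4.48) in WT and 2.25 FPKM (1.82 to 2.75) in ΔM, a log2 ratio of -0.59, only just past a fold of 1.5. *Pdha1* (chrX:156560141-156576345, minus strand) was at 9.20 FPKM (7.83 to 10.7) in WT and 6.09 FPKM (4.92 to 7.45) in ΔM, a log2 ratio of -0.52, just short of it. Both subunits were lower in ΔM beyond counting error. Each value in ΔM rests on about 94.6 fragments at the median annotated transcript length, 674 nt for *Pdha1* and 1485 nt for *Pdhb*. The longest *Pdha1* transcript, 2848 nt, would imply more fragments. The kinases PDK1 to PDK4 phosphorylate and inhibit E1. *Pdk1* (chr2:71711281-71741915, plus strand) was at 19.15 FPKM in WT and 27.02 in ΔM, 1.41 times the WT level (1.25 to 1.59) and a log2 ratio of 0.48. *Pdk3* was at 16.02 and 14.97 FPKM, a log2 ratio of -0.09 with overlapping intervals. *Pdk1* held 54.3% (52.1 to 56.4) of the kinase sum in WT and 63.8% (62.0 to 65.6) in ΔM, so that *Pdk1* had the highest level of the kinases in both libraries.

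The pentose phosphate pathway branches off after hexokinase and provides NADPH and ribose. *G6pdx*, which encodes its entry enzyme, was at 7.83 FPKM in WT and 8.41 in ΔM, and the next enzyme of the oxidative branch, *Pgd*, was at 24.96 and 25.50 FPKM. *Tkt*, the transketolase of the nonoxidative branch, had the highest level of the branch at 147.89 and 146.03 FPKM. The log2 ratios of these 3 genes lay between -0.02 and 0.09 with overlapping intervals. *Taldo1*, transaldolase, was at 23.93 FPKM (22.0 to 26.0) in WT and 29.40 FPKM (27.1 to 31.8) in ΔM, a log2 ratio of 0.29. *G6pdx* shares 19712 bp with *Ikbkg* (48.89 and 44.75 FPKM) on the opposite strand and *Slc16a3* shares 2404 bp with *Csnk1d* (107.77 and 98.31 FPKM), and the use of strand in counting is not given in the sources used here, so that reads of these pairs may not be separated.

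Other genes of the same pathways were read as a list of 41 genes, of which 20 averaged at least 1 FPKM. Their median log2 ratio was -0.13, with 8 genes higher and 12 lower in ΔM. Past 1.5-fold, 1 of 20 was higher and 0 were lower. This gene was *Brp44l*, a subunit of the mitochondrial pyruvate carrier, at 2.14 FPKM in WT and 4.70 in ΔM (log2 ratio of 0.86), while the partner subunit *Brp44* was at 4.59 and 2.85 FPKM (log2 ratio of -0.54). Of the further pyruvate dehydrogenase subunits, named here after their values were seen, *Dld* (E3) was at 18.06 and 13.17 FPKM, *Dlat* (E2) at 15.98 and 15.02 FPKM and *Pdhx* (the E3-binding protein) at 1.68 and 1.62 FPKM, log2 ratios of -0.43, -0.08 and -0.03. Of 13 regulators of glycolytic genes, 9 averaged at least 1 FPKM, their median log2 ratio was 0.05, and 0 of them passed 1.5-fold in either direction. Among these, *Hif1a*, the oxygen-sensitive transcription factor that drives many glycolytic genes, was at 61.81 FPKM in WT and 64.03 in ΔM, and *Txnip*, an inhibitor of glucose uptake, at 55.75 and 47.98 FPKM.

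The authors kept uniquely mapped reads, so that the level of a gene depends on how much of its transcript is found elsewhere in the genome. Windows of 100 nt, 25 nt apart, were taken from a transcript of each gene and compared with NCBIM37, and a copy was counted with at most 2 differences. More than 50% of the windows had a copy for 8 of the 38 genes. These were *Pgam1* with 94.3%, *Pgk1* with 88.6%, *Gapdh* with 86.8%, *Eno1* with 84.6%, *Gpi1* with 74.4%, *Pkm2* with 63.5%, *Pdhb* with 60.7% and *Ldhb* with 55.1%. Single windows of *Gapdh* had up to 77 copies, whereas those of the other 7 had at most 5. *Ldha* (40.3%), *Tpi1* (32.8%), *Taldo1* (17.4%) and *Aldoa* (5.17%) followed, and 20 genes had no such window. Among genes averaging at least 1 FPKM, the median WT level was 6.06 FPKM for the 7 over 50% and 31.4 FPKM for the 4 between 5% and 50%. It was 12.6 FPKM for the 4 above 0 and up to 5%, and 22.1 FPKM for the 18 without a copy. In the same order, the median log2 ratios were 0.17, 0.30, 0.00 and 0.07, with 5 of 7, 4 of 4, 2 of 4 and 12 of 18 higher in ΔM. The relation of the copies to the ratios was not tested. The levels of the 8 genes, their place in the order of the pathway and their shares among isozymes are thus uncertain on the low side. The ratio of ΔM to WT of these genes rests on the part of the transcript that maps uniquely.

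**Figure D4:**
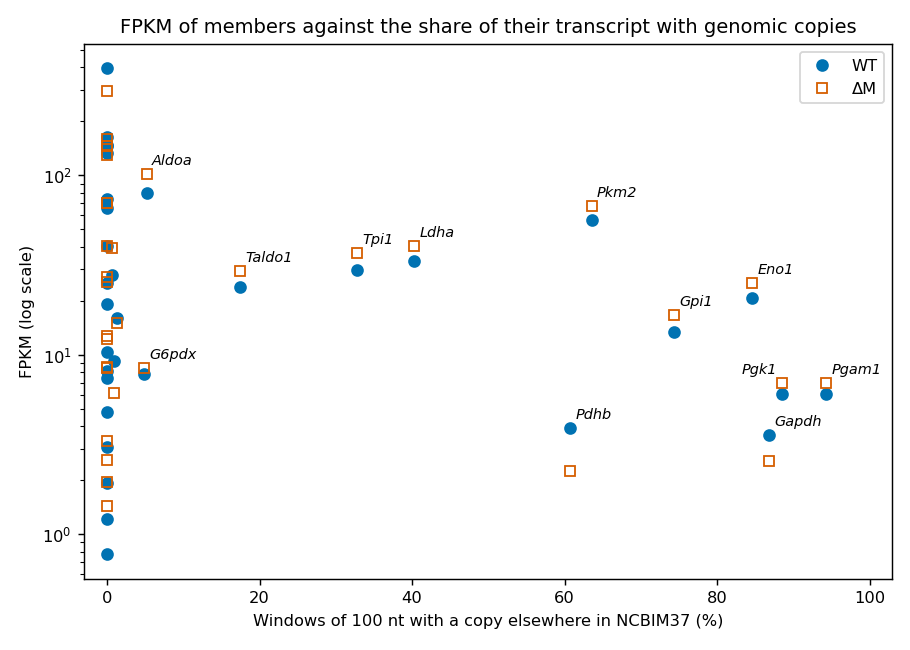
FPKM (log axis) of the 33 genes averaging at least 1 FPKM in WT (circles) and ΔM (open squares) against the share of 100-nt windows of the transcript that have a copy elsewhere in NCBIM37. *Gapdh*, *Pgk1* and *Pgam1*, at 86.8% or more, lie between 2.54 and 6.95 FPKM, while genes without a copy span 0.77 to 395.00 FPKM in WT.

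AU-rich heptamers were also read in the annotated 3′ ends, since the 3′ UTR sites printed above carry them. Of the other 3′ UTR sites that could be read, those of 47 and 15 nt in *Pfkfb3* do not, and the *Eno2* site of 3 nt is too short to hold a heptamer. In the last 500 nt of the transcript TATTTAT was present in 4 of 38 genes (*Slc2a1*, *Pfkm*, *Pgk1* and *Pdk4*), where 12.2% of 7849 protein-coding genes averaging at least 1 FPKM held it. In the last 1000 nt it was present in 8 of 38, with *Hk2*, *Pfkp*, *Pfkfb3* and *Eno2* added, where 19.3% of 7323 genes held it. *Eno2* had 10 overlapping copies in this window, the only 1 of the 7323 genes with as many. The log2 ratios of the 7 genes averaging at least 1 FPKM that held the heptamer in the last 1000 nt were 1.25 for *Eno2*, 0.23 for *Hk2*, 0.17 for *Pgk1*, 0.13 for *Pfkfb3*, 0.02 for *Pfkm*, -0.04 for *Pfkp* and -0.07 for *Slc2a1*. *Eno2* thus stood apart among the genes with the heptamer in the last 1000 nt, and the other 6 lay within the central 90% of protein-coding genes. Whole annotated 3′ UTRs also held it in *Slc2a3* (2 copies), *Pdk1* (1), *Slc16a3* (1) and, under a mean of 1 FPKM, *Pfkfb2* (4). Their log2 ratios were 0.70, 0.48, 0.09 and 0.08, and that of *Slc2a3* lay above the central 90% as well. At the median transcript length, however, the *Slc2a3* intervals in WT (0.709 to 1.96 FPKM) and ΔM (1.78 to 3.67 FPKM) overlapped. No share of all genes was computed for whole 3′ UTRs. The whole 3′ UTR spanned 2122 nt in *Slc2a3*, 3734 in *Pdk1*, 2736 in *Slc16a3* and 5630 in *Pfkfb2*, all longer than 1000 nt. A match of letters is not a binding site, and the relation of the heptamer to the ratios was not tested.

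Promoters were read for the motif ACGTG, the core to which HIF-1 binds, since glycolytic genes are known targets of HIF-1. RefSeq promoters of GRCm38.p6, from 250 bases before to 50 bases after the start, were found for 37 of the 38 genes by symbol, and genes with several starts counted once. *Slc2a3* had no entry. ACGTG or its reverse complement CACGT was present in 20 of 37 genes, where 21.8% of 27025 genes and 30.6% of the 5890 protein-coding genes averaging at least 1 FPKM held it. The E-box CACGTG, which contains ACGTG on both strands, was present in 6 of 37, where 8.09% and 12.8% held it. Windows around the motif are shown for genes of different steps, 5′ to 3′ on the strand of the gene, with 1 copy of the motif in capitals, while further copies in the windows of *Hk1*, *Ldha* and *Slc16a3* are left in lower case.
Hk1, chr10:62340397-62340426, minus strand: cgcgcgctccttACGTGgggaacgtgcagg
Aldoa, chr7:126799363-126799392, minus strand: tgtggctcgagtCACGTcctagcggggcgg
Pgk1, chrX:106186938-106186967, plus strand: gcgtcgtgcaggACGTGacaaatggaagta
Pkm2 (Pkm in RefSeq), chr9:59657140-59657169, plus strand: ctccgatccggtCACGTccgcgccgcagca
Ldha, chr7:46845745-46845774, plus strand: ggcccagcctacACGTGggttcccgcacgt
Slc16a3, chr11:120949028-120949057, plus strand: caggcagcggtgACGTGcgcgggggacgtg
The genes with the motif had log2 ratios from -0.59 (*Pdhb*) to 0.50 (*Hk1*), among those averaging at least 1 FPKM. *Eno2* and *Pdk1*, with log2 ratios of 1.25 and 0.48, did not hold ACGTG or CACGT in this window, which says nothing about HIF-1 at these genes. The motif thus lay in genes with higher and with lower levels in ΔM, and its relation to the ratios was not tested.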

How the data were processed

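RNA-Seq of 1 WT and 1 ΔM library of LPS-stimulated BMDMs was analysed. The authors trimmed the paired-end reads, mapped them to mm9 with Segemehl, retained reads with a unique position and ran Cufflinks over Ensembl exons. The deposited values are FPKM with 2 decimals, 1 value per gene and library, for 37451 genes, 1 of them without a number in ΔM. They are not counts, so that no count model was used, and the depth is not stored with them. Both value columns were assigned by their names.

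Log2 ratios of ΔM to WT used 1 FPKM as pseudocount and genes averaging at least 1 FPKM, and a gene was counted as higher or lower past 1.5-fold. No scaling was applied. Annotation was GENCODE M1 on NCBIM37 (mm9), in which 37039 of the gene identifiers were found. Depth was the number of fragments under which low FPKMs of single-transcript genes of 300 to 700 nt come closest to whole multiples of 1 fragment, at a mean fragment length of 200 nt. At these settings 94.5% of 1056 values in WT and 93.9% of 1041 values in ΔM were whole within 0.15, where 30% would be so by chance. The estimate was tested on simulated data. Counting intervals (95%, Poisson) used the median annotated transcript length and cover counting error only. Intervals of shares take the other isozymes of the step as known.

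Transcript windows were aligned with minimap2 2.31. Sites, 3′ ends and promoters were searched for the stated letters. All members are accounted for, those averaging at least 1 FPKM by both values each, and of the other pathway genes and regulators those past 1.5-fold; others are marked or serve a described result. The members and lists were chosen with earlier results of these data known. Python 3.11.15, numpy 2.4.6, pandas 2.3.3, scipy 1.17.1, pysam 0.24.0 and matplotlib 3.10.9 were used. Alternatives covered the pseudocount, centring, the minimum mean, the fold, denominators, transcript length, window length and motif.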

Additional observations from a re-analysis of the deposited data

How the results depend on the processing

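The median log2 ratio of the glycolysis and lactate genes lay between 0.0942 and 0.180 under a pseudocount of 0.1 FPKM, both centrings, no minimum and a minimum mean of 10 FPKM, beside 0.13 as reported. With a pseudocount of 0.1 FPKM 3 genes were at least 1.5-fold higher in ΔM (*Eno3* added) and 2 lower (*Pdha1* added). With a minimum mean of 10 FPKM, which left 20 of the genes and removed *Eno2*, *Slc2a3* and *Pdhb*, 0 were higher and 0 lower. With a fold of 2 in place of 1.5, 1 was higher (*Eno2*) and 0 lower. Centring shifted all log2 ratios by 0.0284 or 0.0384, and beyond counting error only for *Slc2a6* (-0.45 and -0.46) and, under the larger shift, *Hk3* (-0.20). *Pfkm* and, under the larger shift, *Pgd* turned negative within counting error, and no other log2 ratio changed sign in the alternatives run. With the longest annotated transcript, counting intervals lay apart for 16 genes higher and 5 lower in ΔM, beside 11 and 4. Windows of 50 nt raised the share with a copy by more than 10 percentage points for 8 genes, among them *Aldoa* (58.3%) and *Tpi1* (55.6%). No paired analysis was possible because each genotype has 1 library, and leaving out a library was not possible either. At the median transcript length, depth limits *Slc2a3*, *Eno3* and the 5 genes under 1 FPKM most, and the median half-width of a counting interval was 0.173 on the log2 scale.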
